A study of Xenopus laevis with 79 samples.

Results

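The anterior ectoderm of the Xenopus laevis embryo was compared in the late gastrula, stage (St.) 12.5 of Nieuwkoop and Faber, between the anterior neural border with the preplacodal ectoderm (ANB/PPE) and the anterior neural border beside it (NBa). The comparison rests on 7 of the 79 RNA-seq libraries of the series, 3 of ANB/PPE and 4 of NBa, taken by the labels of stage and region. All embryos were wild type. Each library was made from 1 fragment of superficial ectoderm cut from 1 embryo, and the numbered libraries of a region come from separate embryos. ANB/PPE fragments came from embryos 4, 5 and 7, and NBa fragments from the same embryos 4, 5 and 7 and from 1 embryo whose number the labels do not give. The same fit held 15 further libraries of St. 12.5, 3 each of lateral and posterior neural border (NBl, NBp), anterior and posterior neural plate (NPa, NPp), and nonneural ectoderm (NNE). For the next stage, 5 libraries of ANF/PPE, the neural fold in front together with its preplacodal ectoderm, and 6 of NBa at St. 14 were used; a pair of the ANF/PPE libraries came from embryo 12 and a pair of the NBa libraries from embryo 2.

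The preplacodal ectoderm is the strip of ectoderm around the front of the neural plate that gives rise to the cranial placodes, the source of the lens, nose, ear, adenohypophysis and sensory ganglia. Six4 and Eya proteins act together in it as transcription factor and cofactor, and Pitx, Dlx and Otx factors mark its anterior part. In the frog the most anterior ectoderm also forms the cement gland, a mucus-secreting organ with which the tadpole holds on to surfaces. The neural border next to it forms the neural crest, is marked by Pax3, Zic, and Msx factors, and depends on Wnt signals, which also give the neural plate its posterior character.

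Transcript levels are given as counts of a locus per 1000000 counts of its library (CPM), the library's total being scaled by its size factor (trimmed mean of M-values, TMM). These factors were 0.943 to 1.07 in the 7 libraries. Levels are comparable between libraries for 1 gene, not between genes of different length. A locus is named as in the count table, where .l and .s stand for the copies on the long and the short subgenome of this allotetraploid frog. Values are given for ANB/PPE of embryos 4, 5 and 7 in that order and then for NBa of embryos 4, 5 and 7 and of the unnumbered embryo. Differences are log2 differences, ANB/PPE minus NBa, with their standard errors, from edgeR's quasi-likelihood test, and a gene was called at a false discovery rate of 5% after Benjamini-Hochberg adjustment over all 20956 loci tested. As fragments hold many cells, fewer cells of a type and less RNA per cell cannot be told apart.

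ANB/PPE libraries held 11990845 to 13102183 counts and NBa libraries 10720668 to 15461773, so that 1 count was worth 0.0647 to 0.0933 CPM before scaling by the size factors. No 2 libraries of the series were identical. Fragments had been selected for sequencing by PCR for sox2, an epidermal keratin, pax3, snai2, and low myod1, so levels of these genes are no independent finding. A library of NBa stood apart: the leading log2 distance of NBa of embryo 4 was 3.07 to the mean of the NPa libraries and 3.51 to the mean of the other NBa libraries, which lay 3.83 to 4.06 from the NPa mean. Among the ANB/PPE libraries, that of embryo 7 lay farthest from the NNE mean, at 4.83, against 3.93 and 4.01 for embryos 4 and 5. Counts are therefore also given without these libraries. Markers of the labelled regions were present: the preplacodal gene eya1.1 was at 27.5 to 66.3 CPM in ANB/PPE, and the border gene pax3 (xelaev18029860m.g) was at 90.02 to 308 CPM in NBa. As a gene used for selection, pax3 is no independent marker here. Both genes were also present at lower levels in the other region, and neither was called with all libraries.

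Of the loci tested, 1725 (8.23%) were called higher and 835 (3.98%) lower in ANB/PPE, 1566 and 599 of them by at least 2-fold, and the median log2 difference over all loci was 0.04. All ANB/PPE libraries lay above all NBa libraries at 2878 loci (13.7%) and below them at 1878 (8.96%). Among the loci called higher, 1339 (77.6%) had their highest mean of the 7 regions in NNE and 359 (20.8%) in ANB/PPE itself. Among those called lower, the highest mean lay in NPp for 298, in NBa for 193, in NBp for 190, in NBl for 83 and in NPa for 65. Without NBa of embryo 4 the calls were 1645 higher and 1212 lower, of which 1342 and 780 were among the calls with all libraries; without ANB/PPE of embryo 7 they were 1535 and 566, with 1399 and 523 shared. The number of calls depended on 3 other libraries: 1069 higher and 367 lower without ANB/PPE of embryo 4, 865 and 293 without ANB/PPE of embryo 5, and 1379 and 499 without the unnumbered NBa. Of the 112 genes named in the text that were called, 25 lost the call when embryo was a block in the fit of the 2 regions alone, with 6 libraries.

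The smallest p among genes higher in ANB/PPE belonged to cldn1.s, a claudin of tight junctions. It stood at 26.7, 22.3 and 11.1 CPM in ANB/PPE, against 0, 0.429, 0.0834 and 0.0606 CPM in NBa (log2 difference 6.98 ± 0.61, edgeR adjusted p = 1.4e-05), with no overlap between the regions. In NNE cldn1.s was higher than in ANB/PPE, at 62.0 ± 14.5 CPM (ANB/PPE minus NNE -1.63, edgeR adjusted p = 0.0375). In NBl it averaged 9.92 ± 4.25 CPM and was not called different from ANB/PPE (1.01, edgeR adjusted p = 0.19; SD, n = 3 each). Among genes lower in ANB/PPE the smallest p was that of hoxd1.s, a homeobox gene of the hindbrain and more posterior levels. Its values were 0.0796, 0.163 and 0.261 CPM in ANB/PPE, against 44.2, 56.5, 125 and 143 CPM in NBa (log2 difference -9.04 ± 0.86, edgeR adjusted p = 1.4e-05). Every NBa fragment thus held over 40 CPM of it and no ANB/PPE fragment reached 1 CPM.

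**Figure D1:**
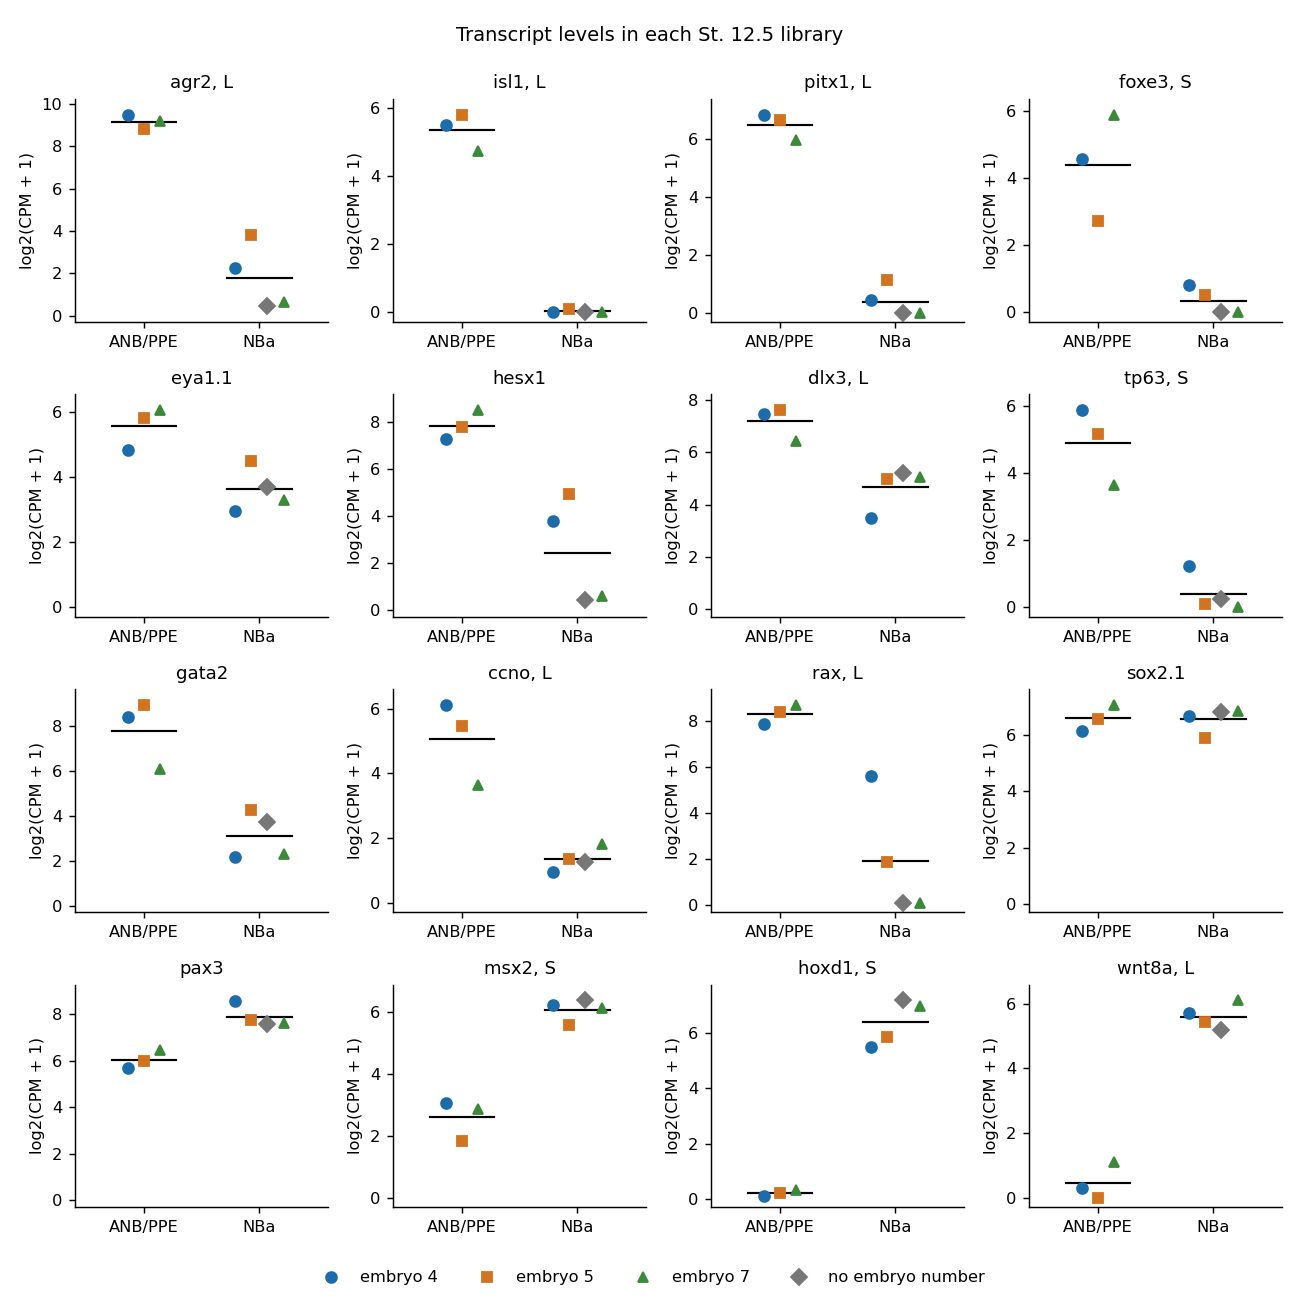
Each panel shows 1 gene in the 7 libraries of St. 12.5 as log2(CPM + 1), ANB/PPE left and NBa right, with the marker giving the embryo and the line the mean of the region. Cement gland, placode and nonneural genes lie higher in ANB/PPE, hoxd1.s, wnt8a.l and msx2.s lie lower, and sox2.1 overlaps between the regions.

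Genes of the cement gland had the largest median difference of the gene lists. Of 18 loci tested, 13 (72.2%) were called higher in ANB/PPE and 0 lower, with a median log2 difference of 5.04. All 13 had their highest mean of the 7 regions in ANB/PPE. For this and each later list, the shares of all loci tested were 8.23% called higher and 3.98% lower. The count stayed at 13 when any 1 of the 7 libraries was left out. Summed over the list, levels were 4466 to 5000.5 CPM in ANB/PPE against 908 to 1875 CPM in NBa.

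agr2, which encodes a protein of the disulfide isomerase family made in the cement gland, stood for its L copy at 710.2, 447 and 582 CPM in ANB/PPE, against 3.85, 12.9, 0.584 and 0.363 CPM in NBa (log2 difference 7.03 ± 0.94, edgeR adjusted p = 0.00014). The S copy followed, at 633, 406 and 518 CPM in ANB/PPE, against 5.82, 16.6, 3.42 and 1.70 CPM in NBa (6.24 ± 0.72, adjusted p = 5.4e-05). In NNE, agr2.l averaged 6.07 ± 6.33 CPM and in NPa 6.17 ± 4.95 CPM (SD, n = 3 each), so no other region came within an order of magnitude of ANB/PPE. ag1 (xelaev18044817m.g), a cement gland gene of the same family, was present in both regions, at 1389, 1713 and 1812 CPM in ANB/PPE, against 134, 425, 160.0 and 574 CPM in NBa (2.34 ± 0.48, adjusted p = 0.0035). Its highest NBa value, in the unnumbered library, lay below the lowest ANB/PPE value.

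A transcription factor of the group showed a larger difference than ag1. pitx1.l, a homeobox gene that drives cement gland formation in the frog, stood at 112, 99.1 and 61.1 CPM in ANB/PPE, against 0.375, 1.22, 0 and 0 CPM in NBa (7.80 ± 1.29, adjusted p = 0.0014). NBa of embryo 5 held its highest NBa level, and 2 NBa libraries had no count of it.

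isl1, a LIM homeobox gene of placodes and sensory neurons, was nearly confined to ANB/PPE among these 7 libraries. isl1.l had 1532 counts over the ANB/PPE libraries and 1 count over the NBa libraries, a ratio of 2059, with a counting interval of 369 to 81364. The CPM values of isl1.l in ANB/PPE were 44.6, 54.7 and 25.9. In NNE isl1.l averaged 14.7 ± 12.6 CPM (SD, n = 3) and was not called different from ANB/PPE (ANB/PPE minus NNE 1.5, adjusted p = 0.24). For isl1.s that difference was 2.48 (adjusted p = 0.047). isl1.s had 989 counts against 2, a ratio of 664, with a counting interval of 183 to 5495. These intervals, at 95% confidence, cover counting error only.

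Genes tied to secretion rose beside them. spdef.s, an ETS factor of mucus-producing cells in mammals, stood at 34.1, 33.4 and 32.7 CPM in ANB/PPE, against 0.751, 5.22, 3.09 and 5.09 CPM in NBa (3.22 ± 0.55, adjusted p = 0.0011). ern2, which encodes an endoplasmic reticulum stress sensor of mucus-secreting epithelia in mammals, had 2 loci called: xelaev18047693m.g at 33.3, 20.9 and 17.9 CPM in ANB/PPE, against 0.188, 1.79, 0.5 and 0.787 CPM in NBa (4.83 ± 0.57, adjusted p = 5.6e-05), and xelaev18045424m.g at 56.3, 47.9 and 26.6 CPM in ANB/PPE, against 2.63, 6.08, 5.59 and 2.18 CPM in NBa (3.40 ± 0.53, adjusted p = 0.00047). NBa of embryo 4 had the lowest NBa level of spdef.s and of the first ern2 locus. In NNE spdef.s averaged 23.9 ± 8.77 CPM (SD, n = 3) and was not called different from ANB/PPE (ANB/PPE minus NNE 0.49, adjusted p = 0.77). The second ern2 locus was not called against NNE either (1.53, adjusted p = 0.092), while the first was higher in ANB/PPE (3.17, adjusted p = 0.0021). The 5 members not called were muc19.l, both crx copies and both otx2 loci. otx2 (xelaev18039840m.g), an anterior homeobox gene, stood at 268, 371 and 248 CPM in ANB/PPE, against 119, 149, 54.9 and 49.5 CPM in NBa without overlap (1.67 ± 1.098, adjusted p = 0.37).

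**Figure D2:**
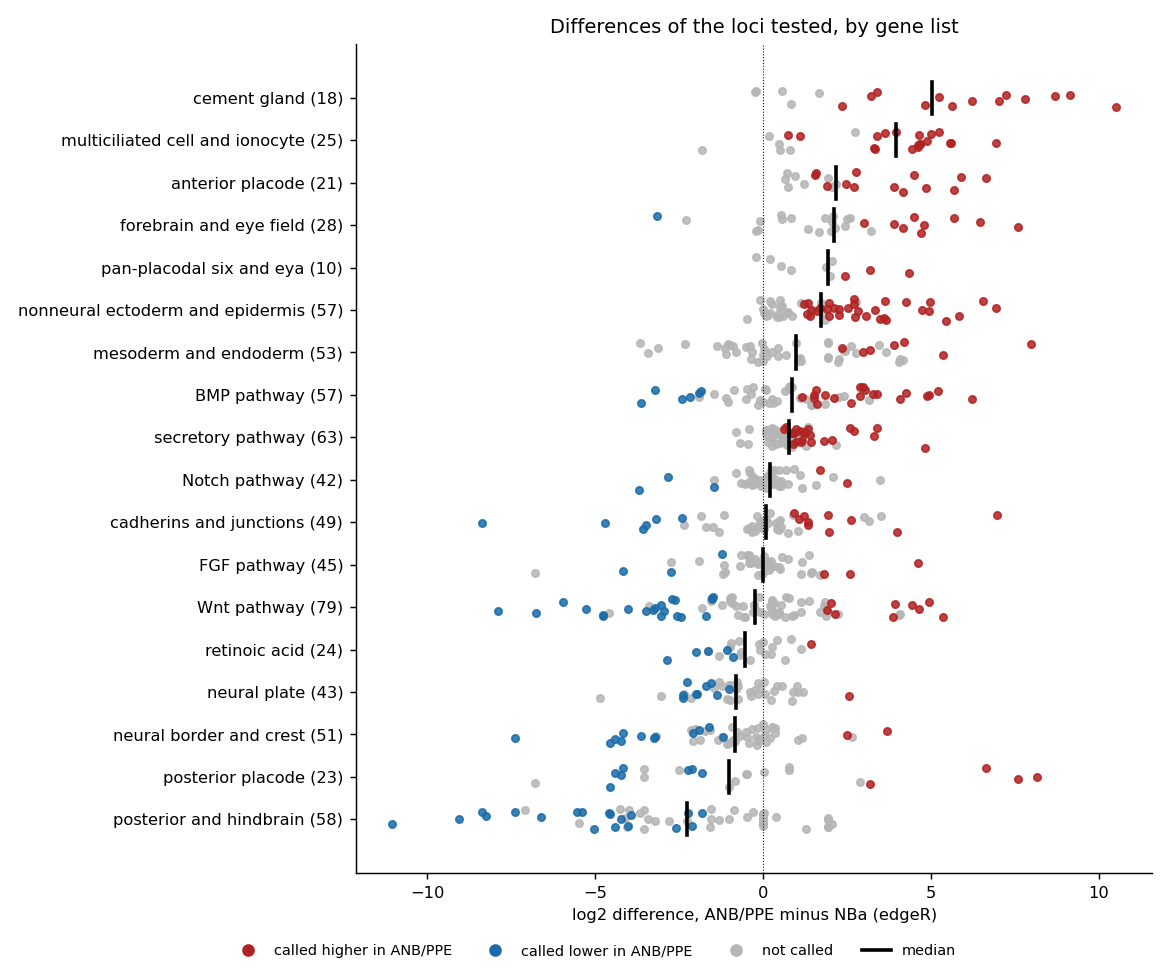
Each point is 1 locus tested at its log2 difference, ANB/PPE minus NBa, in rows by gene list with the number of loci tested in parentheses; colour gives the call and the black bar the median. Cement gland, at a median of 5.04, and multiciliated cell and ionocyte genes, at 3.96, lie farthest to the right, and posterior and hindbrain genes, at -2.25, farthest to the left.

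The anterior and posterior placode lists differed. In the anterior placode list 13 of 21 loci tested (61.9%) were called higher and 0 lower (median 2.17). Of the 13, 10 had their highest mean in ANB/PPE, among them both hesx1 loci and both six3 copies, which were not called different from NPa. The count was 14 without NBa of embryo 4 and 11 without ANB/PPE of embryo 7. Summed levels were 1555 to 1688 CPM in ANB/PPE against 164 to 290.1 CPM in NBa. In the posterior placode list 4 of 23 (17.4%) were called higher, all 4 with their highest mean in NNE, and 7 (30.4%) lower (median -1.02). The members called lower were genes also active in the posterior neural plate or hindbrain, namely 3 gbx2 loci, irx1.l, both irx2 copies, and fgf3.s. These gbx2, irx1.l and irx2 loci are also members of the posterior and hindbrain list below. Without ANB/PPE of embryo 5 the lower count was 4.

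foxe3.s, a forkhead gene of the lens, stood at 22.4, 5.52 and 57.5 CPM in ANB/PPE, against 0.751, 0.429, 0 and 0 CPM in NBa (6.64 ± 1.27, adjusted p = 0.0028). With DESeq2 its adjusted p was 0.063. The ANB/PPE values of foxe3.s spread over 10-fold, with embryo 7 highest and embryo 5 lowest. foxe3.l had 99 counts in ANB/PPE and 2 in NBa, a ratio of 66.5, with a counting interval of 17.9 to 557. hesx1, a homeobox repressor of the forebrain and pituitary placode, had its locus xelaev18001776m.g at 153, 219 and 358 CPM in ANB/PPE, against 12.7, 29.4, 0.5 and 0.363 CPM in NBa (4.50 ± 1.03, adjusted p = 0.0073), and its locus xelaev18003045m.g at 40.3, 79.6 and 173 CPM in ANB/PPE, against 0.845, 6.08, 0.0834 and 0.424 CPM in NBa (5.69 ± 1.11, adjusted p = 0.0026). Both were highest in ANB/PPE of embryo 7. In NPa these hesx1 loci averaged 191 ± 106 and 39.4 ± 39.4 CPM (SD, n = 3). Neither was called different from NPa (ANB/PPE minus NPa 0.35, edgeR adjusted p = 0.9, and 1.31, adjusted p = 0.48). dmrta1.l, a gene of the olfactory placode and telencephalon, was at 20.1, 5.93 and 5.13 CPM in ANB/PPE, against 3.56, 5.004, 0.5 and 0.182 CPM in NBa, without overlap but not called (2.17 ± 0.86, adjusted p = 0.12), and dmrta1.s overlapped between the regions (1.93 ± 1.03, adjusted p = 0.26).

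Dlx genes, homeobox factors of the anterior border and nonneural ectoderm, rose in 5 of 6 loci. dlx3.l stood at 176, 193 and 86.0 CPM in ANB/PPE, against 10.2, 30.0, 32.3 and 35.6 CPM in NBa (2.48 ± 0.45, adjusted p = 0.0017), and dlx5.s at 128, 107.5 and 52.98 CPM in ANB/PPE, against 10.9, 18.2, 12.3 and 15.3 CPM in NBa (2.76 ± 0.36, adjusted p = 0.00011). Differences of the other called loci were 2.71 for dlx3.s, 1.91 for dlx5.l and 1.58 for dlx6.s. ANB/PPE of embryo 7 was the lowest of its region for every one of these 5. The call of dlx6.s (adjusted p = 0.025) was lost without the ANB/PPE fragment of embryo 4 (0.078), the ANB/PPE fragment of embryo 5 (0.095), the NBa fragment of embryo 4 (0.068) or the unnumbered NBa fragment (0.056). dlx6.l was not called, at 36.5, 34.0 and 17.9 CPM in ANB/PPE, against 6.38, 20.02, 15.7 and 18.1 CPM in NBa (0.97 ± 0.60, adjusted p = 0.33).

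Genes of the pan-placodal list, with six4 and eya, had a smaller median difference than the cement gland genes. Of 10 loci tested, 3 (30%) were called higher and 0 lower (median 1.93). With embryo as a block, which drops the unnumbered NBa, 5 were called. eya1.1 was at 27.5, 55.5 and 66.3 CPM in ANB/PPE, against 6.85, 21.9, 8.93 and 12.2 CPM in NBa, without overlap but not called (1.99 ± 0.78, adjusted p = 0.1); with the block its adjusted p was 0.0498. eya1.s (adjusted p = 0.045) was called only with all 7 libraries, since leaving out any 1 of them gave an adjusted p of 0.057 to 0.17. six4.l overlapped between the regions, at 39.1, 66.4 and 55.9 CPM in ANB/PPE, against 22.1, 38.6, 30.9 and 56.04 CPM in NBa (0.54 ± 0.32, adjusted p = 0.3). With embryo as a block in all regions its adjusted p was 0.035, but six4.l was not called with the block in the 2 regions alone. For six4.s the difference was 0.83 ± 0.34, adjusted p = 0.12.

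Forebrain and eye genes were higher in ANB/PPE too, but this list shares called loci with the anterior placode list. Both hesx1 loci and both six3 copies belong to both lists. In the forebrain and eye field list, 9 of 28 loci tested (32.1%) were called higher and 1 (3.6%) lower (median 2.11). Summed levels were 2956 to 3978 CPM in ANB/PPE against 926 to 1607 CPM in NBa. NBa libraries were split within this group. The count of higher calls was 16 without NBa of embryo 4, 5 without NBa of embryo 5, 5 without ANB/PPE of embryo 5, 6 without the unnumbered NBa, and 7 without ANB/PPE of embryo 7. The lower count was 2 with embryo as a block, 1 without NBa of embryo 5 or the unnumbered NBa, and 0 without any 1 of the other 5 libraries.

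six3.l, a homeobox gene of the eye field and anterior placodes, stood at 319.8, 251 and 271 CPM in ANB/PPE, against 43.9, 17.5, 0.584 and 0 CPM in NBa (4.19 ± 1.26, adjusted p = 0.034). NBa of embryos 4 and 5 thus held 43.9 and 17.5 CPM while the other NBa libraries held under 1 CPM. The call of six3.l was lost without the ANB/PPE fragment of embryo 4 (0.077), the ANB/PPE fragment of embryo 5 (0.073), the ANB/PPE fragment of embryo 7 (0.055), the NBa fragment of embryo 5 (0.072), the NBa fragment of embryo 7 (0.076) or the unnumbered NBa fragment (0.055). six3.s had 3.89 ± 1.25, adjusted p = 0.047, and its call was lost without the ANB/PPE fragment of embryo 4 (0.096), the ANB/PPE fragment of embryo 5 (0.1), the ANB/PPE fragment of embryo 7 (0.075), the NBa fragment of embryo 5 (0.1), the NBa fragment of embryo 7 (0.079) or the unnumbered NBa fragment (0.074). The retinal homeobox gene rax.l showed the same split, at 232, 336 and 407 CPM in ANB/PPE, against 47.2, 2.65, 0.0834 and 0.0606 CPM in NBa (4.72 ± 1.31, adjusted p = 0.022), and lost its call without the ANB/PPE fragment of embryo 5 (0.056) or the NBa fragment of embryo 5 (0.061). rax.s had 4.79 ± 1.34, adjusted p = 0.023 and lost its call without the ANB/PPE fragment of embryo 5 (0.061), the NBa fragment of embryo 5 (0.061) or the unnumbered NBa fragment (0.0504).

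pax6 (xelaev18021973m.g), a regulator of the eye, lens and olfactory placode, was at 199, 214 and 196 CPM in ANB/PPE, against 106, 34.7, 4.59 and 5.94 CPM in NBa, without overlap but not called (2.43 ± 1.004, adjusted p = 0.12). Without NBa of embryo 4, the NBa library with the highest pax6, the adjusted p of this locus was 0.024. The second pax6 locus, xelaev18024402m.g, went the same way, with an adjusted p of 0.17 with and 0.015 without that library. fezf2.s, a zinc finger gene of the forebrain, stood at 52.7, 60.0 and 56.4 CPM in ANB/PPE, against 14.4, 10.7, 1.92 and 1.27 CPM in NBa (3.004 ± 0.68, adjusted p = 0.0067) and was highest in NPa, at 104 ± 48.1 CPM (SD, n = 3).

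Nonneural ectoderm genes made up the largest called group. Of 57 loci tested, 32 (56.1%) were called higher and 0 lower (median 1.74), and 28 of the 32 had their highest mean in NNE. Summed levels were 18243 to 30310.4 CPM in ANB/PPE against 4755 to 12682 CPM in NBa. Without ANB/PPE of embryo 4 the count was 20, without ANB/PPE of embryo 5 21, without NBa of embryo 4 29, and without ANB/PPE of embryo 7 32.

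Transcription factors of the early epidermis differed most. tp63.s, a p53-family factor of stratified epidermis, stood at 57.3, 34.3 and 11.4 CPM in ANB/PPE, against 1.31, 0.0715, 0 and 0.182 CPM in NBa (6.56 ± 0.74, adjusted p = 5.4e-05), and NNE averaged 376 ± 111 CPM (SD, n = 3). tp63.l was at 33 counts over ANB/PPE and 1 count over NBa, a ratio of 44.3, with a counting interval of 7.42 to 1804. gata3 (xelaev18020919m.g), a zinc finger factor of ventral ectoderm, stood at 96.6, 111 and 28.2 CPM in ANB/PPE, against 0.469, 4.22, 0.5 and 0.182 CPM in NBa (5.84 ± 0.85, adjusted p = 0.00027). gata2 (xelaev18025905m.g) stood at 336, 475 and 65.2 CPM in ANB/PPE, against 3.47, 18.1, 3.84 and 12.1 CPM in NBa (4.95 ± 0.76, adjusted p = 0.00043). In ANB/PPE of embryo 7 these genes were lower than in embryos 4 and 5, by over 4-fold for gata2, yet above all 4 NBa libraries.

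tbx2.l, a T-box gene of the posterior placode list whose highest mean was in NNE, behaved alike, at 32.5, 51.01 and 6.53 CPM in ANB/PPE, against 0.0938, 0.286, 0 and 0 CPM in NBa (8.17 ± 0.98, adjusted p = 6.1e-05). klf5.s, a zinc finger factor of epithelia, stood at 85.1, 117 and 43.1 CPM in ANB/PPE, against 2.35, 16.1, 4.09 and 9.81 CPM in NBa (3.33 ± 0.49, adjusted p = 0.00029), and klf5.l had 3.47 ± 0.49, adjusted p = 0.00024. grhl1, a grainyhead-like factor of the epidermal barrier, had 2 loci called, xelaev18028037m.g at 492, 765 and 375 CPM in ANB/PPE, against 32.3, 158, 44.3 and 95.7 CPM in NBa (2.72 ± 0.49, adjusted p = 0.0015) and xelaev18030077m.g (2.74 ± 0.51, adjusted p = 0.002). Both grhl1 loci were present in all 7 libraries, and ANB/PPE and NBa did not overlap. foxi1.s, a forkhead gene of ionocytes and early ectoderm, was uneven within ANB/PPE, at 15.3, 2.11 and 0.087 CPM in ANB/PPE, against 0, 0.143, 0 and 0 CPM in NBa, and had 2 counts in NBa in all (a ratio of 147, with a counting interval of 40.2 to 1223). foxi1.l had 3.63 ± 1.05, adjusted p = 0.027; its call was lost without the ANB/PPE fragment of embryo 4 (0.64), the NBa fragment of embryo 7 (0.075) or the unnumbered NBa fragment (0.077) and with embryo as a block (adjusted p = 0.059).

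Keratins were present in both regions at higher levels in ANB/PPE. Fragments had been screened by PCR for an epidermal keratin, named xk81a1 in the paper, so keratin levels may not be independent of that selection. krt8.l stood at 2396, 1493 and 814 CPM in ANB/PPE, against 314, 577, 639 and 525 CPM in NBa (1.61 ± 0.28, adjusted p = 0.0013), and krt8.s had 1.69 ± 0.35, adjusted p = 0.0043. krt5.7.l was at 6328, 4943 and 3559 CPM in ANB/PPE, against 279.9, 1766, 1673 and 1502 CPM in NBa (1.92 ± 0.47, adjusted p = 0.011), and lost its call without the ANB/PPE fragment of embryo 4 (0.053). NBa of embryo 4 was the lowest library for these 3 loci. krt12.l was at 70.5, 100.2 and 19.8 CPM in ANB/PPE, against 0.563, 20.6, 5.17 and 3.94 CPM in NBa (3.06 ± 0.72, adjusted p = 0.0084; lost without the ANB/PPE fragment of embryo 5 (0.053)), while krt12.s did not overlap but was not called (1.75 ± 0.62, adjusted p = 0.074; 0.0499 without NBa of embryo 5). ANB/PPE of embryo 7 had the lowest ANB/PPE level of each.

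Genes of multiciliated cells and ionocytes, the scattered cell types of the frog epidermis, rose in 19 of 25 loci tested (76%) and fell in 0 (median 3.96). All 19 had their highest mean in NNE. Summed levels were 258 to 725 CPM in ANB/PPE against 122 to 198 CPM in NBa. The count was 19 without NBa of embryo 4 and 18 without ANB/PPE of embryo 7. mcidas (xelaev18008287m.g), which switches on the multiciliated programme, stood at 71.2, 59.9 and 13.9 CPM in ANB/PPE, against 0, 2.07, 3.34 and 1.999 CPM in NBa (4.68 ± 0.69, adjusted p = 0.00029). ccno.l, a cyclin needed to multiply centrioles, was at 68.04, 43.5 and 11.6 CPM in ANB/PPE, against 0.938, 1.57, 2.50 and 1.39 CPM in NBa (4.67 ± 0.54, adjusted p = 5.4e-05). foxj1.s, the forkhead factor of motile cilia, was at 41.9, 45.2 and 3.48 CPM in ANB/PPE, against 0.375, 2.57, 0.584 and 1.21 CPM in NBa (4.62 ± 0.77, adjusted p = 0.00086). In all 3 genes ANB/PPE of embryo 7 lay well below embryos 4 and 5 and still above every NBa library.

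**Figure D3:**
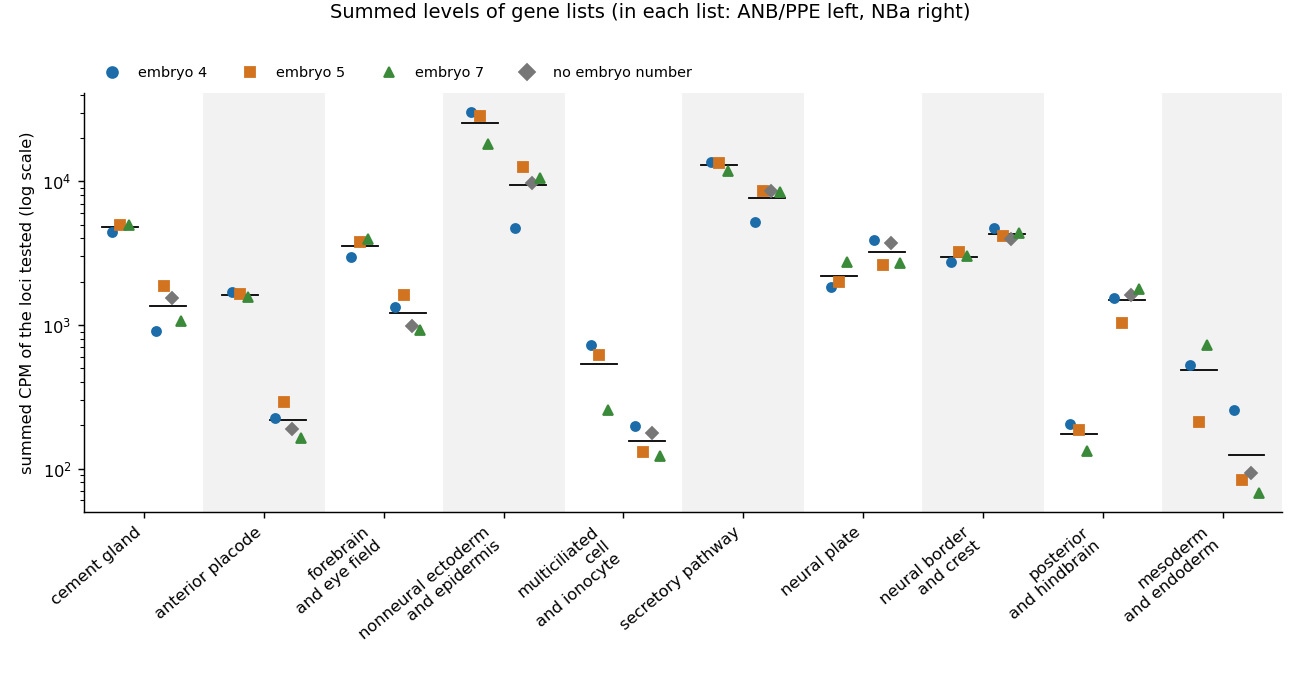
Summed CPM of the loci tested in 10 gene lists, on a log scale, in each of the 7 libraries, with ANB/PPE left and NBa right in each list, the marker giving the embryo and the line the mean. Cement gland sums run from 4466 to 5000.5 CPM in ANB/PPE against 908 to 1875 in NBa, and posterior and hindbrain sums from 133 to 205 CPM in ANB/PPE against 1026 to 1778 CPM in NBa.

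Neural border and crest genes fell in part. Of 51 loci tested, 12 (23.5%) were called lower and 2 (3.9%) higher (median -0.84). Summed levels were 2737 to 3229.5 CPM in ANB/PPE against 3982 to 4741 CPM in NBa. Of the 12, 5 had their highest mean in NBa, 5 in NBl and 2 in NBp. The lower count was 12 without NBa of embryo 4 and 10 without ANB/PPE of embryo 7.

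msx2, a homeobox gene of the neural border that responds to BMP and Wnt signals, was called lower for both copies. msx2.s stood at 7.40, 2.60 and 6.35 CPM in ANB/PPE, against 73, 46.3, 68.7 and 81.8 CPM in NBa (-3.63 ± 0.62, adjusted p = 0.001) and msx2.l at 6.45, 5.28 and 4.002 CPM in ANB/PPE, against 55.4, 54.5, 57.7 and 28.8 CPM in NBa (-3.22 ± 0.61, adjusted p = 0.0022), each without overlap. msx1.l was at 75.2, 40.4 and 25.2 CPM in ANB/PPE, against 118, 205, 248 and 129 CPM in NBa (-1.90 ± 0.61, adjusted p = 0.046) and lost its call without the ANB/PPE fragment of embryo 4 (0.0503), the ANB/PPE fragment of embryo 5 (0.17), the ANB/PPE fragment of embryo 7 (0.16), the NBa fragment of embryo 5 (0.082), the NBa fragment of embryo 7 (0.11) or the unnumbered NBa fragment (0.058). msx1.s overlapped between the regions (-0.84 ± 0.59, adjusted p = 0.4).

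zic1, a zinc finger gene of the neural border and dorsal neural plate, was not called, with -0.83 ± 0.40, adjusted p = 0.19 for zic1.l and -0.91 ± 0.36, adjusted p = 0.11 for zic1.s, although all 4 NBa libraries lay above all 3 ANB/PPE libraries for both. pax3 was lower in each ANB/PPE library without a call: its locus xelaev18029860m.g was at 41.3, 41.2 and 40.97 CPM in ANB/PPE, against 308, 136, 136 and 90.02 CPM in NBa (-2.02 ± 0.71, adjusted p = 0.067), and xelaev18027783m.g had -1.89 ± 0.83, adjusted p = 0.15. With the 6 libraries of embryos 4, 5 and 7 alone and embryo as a block, the adjusted p was 0.019 for the one and 0.032 for the other pax3 locus. Neither pax3 locus was called with the block in the fit of all regions. olig3.s, a bHLH gene of the dorsal neural tube, stood at 5.73, 3.41 and 5.05 CPM in ANB/PPE, against 123, 28.7, 119 and 66.9 CPM in NBa (-4.16 ± 1.01, adjusted p = 0.01), and lost its call without the ANB/PPE fragment of embryo 5 (0.062).

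Genes of the later crest were low in both regions. snai2 (xelaev18031998m.g), a zinc finger gene of crest migration, was at 6.29, 5.93 and 7.13 CPM in ANB/PPE, against 18.9, 21.5, 18.6 and 1.45 CPM in NBa (-1.22 ± 0.91, adjusted p = 0.43), with the unnumbered NBa below all ANB/PPE libraries. In each of embryos 4, 5 and 7 snai2 was lower in ANB/PPE than in NBa. In the fit of 6 libraries of these 2 regions with embryo as a block its adjusted p was 0.025, but snai2 was not called with the block in all regions. foxd3.l was at 0.159, 0.325 and 0.435 CPM in ANB/PPE, against 3.56, 0.286, 1.084 and 0.727 CPM in NBa (-2.14 ± 0.90, adjusted p = 0.13). sox9.1 was at 4.93, 5.12 and 5.22 CPM in ANB/PPE, against 17.1, 7.58, 8.34 and 8.48 CPM in NBa, without overlap (-1.02 ± 0.35, adjusted p = 0.063). The 2 members called higher in ANB/PPE were klf17 (xelaev18023103m.g), at 369, 439.8 and 274 CPM in ANB/PPE, against 39.97, 80.7, 59.8 and 74.6 CPM in NBa (2.50 ± 0.30, adjusted p = 6.1e-05), and ets1 (xelaev18035277m.g), at 36.9, 33.2 and 27.1 CPM in ANB/PPE, against 0.657, 7.15, 1.25 and 0.787 CPM in NBa (3.70 ± 0.62, adjusted p = 0.00092). Of the 7 regions klf17, a Krüppel-like factor, had its highest mean in ANB/PPE and ets1, an ETS factor, in NNE.

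Most neural plate genes that were called were lower in ANB/PPE. Of 43 loci tested 9 (20.9%) were called lower and 1 (2.3%) higher (median -0.79). The lower count was 8 without NBa of embryo 4 and 12 without ANB/PPE of embryo 7. It was 2 without ANB/PPE of embryo 4, 2 without ANB/PPE of embryo 5 and 4 without the unnumbered NBa. The higher count was 3 with embryo as a block and 4 without NBa of embryo 4. The single higher call, nuak1.l, a kinase gene, was lost without the ANB/PPE fragment of embryo 5 (0.057), the NBa fragment of embryo 7 (0.054) or the unnumbered NBa fragment (0.053) (2.56 ± 0.67, adjusted p = 0.017 with all libraries). sox2.1, a SoxB1 factor of neural progenitors, overlapped, at 70.9, 93.9 and 133 CPM in ANB/PPE, against 103, 59.6, 116 and 112 CPM in NBa (0.03 ± 0.25, adjusted p = 0.97). sox3 (xelaev18038842m.g) had 1.03 ± 0.35, adjusted p = 0.057, with an adjusted p of 0.038 with embryo as a block and 0.045 without the unnumbered NBa. NPa held 226 ± 20.5 CPM of sox2.1 and NNE 4.89 ± 0.431 (SD, n = 3 each). ANB/PPE and NBa lay between these for sox2.1, a gene by which fragments had been selected.

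zc4h2.l, a zinc finger gene of the neural plate, stood at 17.2, 17.9 and 33.4 CPM in ANB/PPE, against 149, 52.1, 88.4 and 66.2 CPM in NBa (-1.96 ± 0.38, adjusted p = 0.0027). NBa of embryo 4 was the highest, and the other 3 NBa libraries also lay above ANB/PPE. The other zc4h2 copy was not called (-0.38, adjusted p = 0.57). rfx4.l, a neural plate factor, was not called (-2.14 ± 0.73, adjusted p = 0.06). It was at 2.47, 1.54 and 3.04 CPM in ANB/PPE, against 28.99, 3.50, 3.92 and 5.45 CPM in NBa. Its adjusted p was 0.021 with embryo as a block in all regions, 0.037 without NBa of embryo 5 and 0.0499 without NBa of embryo 7. With the block in the 2 regions alone rfx4.l was not called. lin28a.s, an RNA-binding protein of early progenitors, stood at 123, 172 and 208 CPM in ANB/PPE, against 333, 332, 264 and 434 CPM in NBa (-1.02 ± 0.23, adjusted p = 0.0067). Levels of lin28a.s differed by about 2-fold and did not overlap.

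Posterior genes were the group with the most negative median. In the posterior and hindbrain list 19 of 58 loci tested (32.8%) were called lower and 0 higher. The median was -2.25, or -1.16 with the 24 loci that had no count in 1 of the regions set at their bound. For 29 of the 58, all 7 libraries held under 1 CPM. Of the 19, 9 had their highest mean in NBa, 8 in NBp and 2 in NBl. Summed levels were 133 to 205 CPM in ANB/PPE against 1026 to 1778 CPM in NBa. The count was 20 without NBa of embryo 4 and 16 without ANB/PPE of embryo 7.

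Of the Hox genes, which give hindbrain and trunk levels their identity, several differed strongly. hoxb1.s had 0 counts in ANB/PPE and 1011 in NBa, where it was at 27.1, 13.7, 31.9 and 8.90 CPM, so it was at least 251-fold lower in ANB/PPE, taking 3 counts over the region as the highest level that a count of 0 allows. hoxd1.l stood at 2.39, 0.731 and 3.04 CPM in ANB/PPE, against 42.4, 60.4, 119.6 and 118 CPM in NBa (-5.37 ± 0.67, adjusted p = 7.9e-05). NBa of embryo 4 held the lowest NBa level of hoxd1.l but not of hoxb1.s. cdx4.l, a caudal homeobox gene of the tail end, had 1 count in ANB/PPE and 659 in NBa, a ratio of 490.4, with a counting interval of 87.7 to 19399, in NBa over ANB/PPE; its call (adjusted p = 0.011) was lost without the ANB/PPE fragment of embryo 4 (0.052) or the ANB/PPE fragment of embryo 5 (0.059) and with limma-voom (0.14).

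gbx2, a homeobox gene that marks ectoderm behind the Otx2 territory, had 3 loci called lower. Its locus xelaev18044833m.g stood at 10.7, 1.38 and 2.61 CPM in ANB/PPE, against 131, 76.8, 152 and 99.7 CPM in NBa (-4.54 ± 0.81, adjusted p = 0.0014), and xelaev18047280m.g and xelaev18044831m.g had log2 differences of -4.40 and -4.23. meis3 (xelaev18039368m.g), a Hox cofactor of the hindbrain, stood at 17.1, 8.12 and 5.13 CPM in ANB/PPE, against 252, 164, 345 and 216 CPM in NBa (-4.59 ± 0.56, adjusted p = 6.1e-05). irx3.l, an Iroquois homeobox gene of the plate behind the forebrain, stood at 2.87, 3.98 and 4.35 CPM in ANB/PPE, against 78.5, 38.8, 82.7 and 44.04 CPM in NBa (-4.03 ± 0.60, adjusted p = 0.0003). None of these loci overlapped between the regions, and each was highest in NBa of embryo 7. irx2.l differed by -2.12 ± 0.48, adjusted p = 0.0071. irx1.l had -2.24 ± 0.58, adjusted p = 0.015 and lost its call without the ANB/PPE fragment of embryo 5 (0.065) or the ANB/PPE fragment of embryo 7 (0.061). znf703.l, a zinc finger gene chosen for the size of its difference, stood at 0.477, 0.163 and 0.174 CPM in ANB/PPE, against 16.5, 21.02, 36.3 and 41.01 CPM in NBa (-6.66 ± 0.74, adjusted p = 5.4e-05).

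Wnt pathway genes were called in both directions. Of 79 loci tested, 21 (26.6%) were called lower and 9 (11.4%) higher (median -0.24), against 3.98% and 8.23% of all loci. The higher share thus lay nearer to that of all loci than the lower share did. The counts were 20 and 11 without NBa of embryo 4 and 20 and 7 without ANB/PPE of embryo 7. Among ligands, wnt8a.l, a posteriorizing Wnt of the gastrula, stood at 0.239, 0 and 1.13 CPM in ANB/PPE, against 51.5, 42.1, 67.98 and 35.1 CPM in NBa (-6.75 ± 0.87, adjusted p = 0.00011). wnt8a.s had 1 count in ANB/PPE and 75 in NBa, a ratio of 55.8, with a counting interval of 9.72 to 2234, in NBa over ANB/PPE. All NBa libraries held wnt8a.l and 1 ANB/PPE library, that of embryo 5, held none.

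Receptors divided by gene. fzd10.l, a Frizzled receptor of the dorsal neural tube, stood at 16.9, 6.09 and 3.22 CPM in ANB/PPE, against 152, 51.97, 122 and 67.97 CPM in NBa (-3.48 ± 0.65, adjusted p = 0.0019). The coreceptor ror2.l of noncanonical Wnt signalling stood at 15.1, 46.9 and 72.2 CPM in ANB/PPE, against 329, 219, 159 and 387 CPM in NBa (-2.61 ± 0.48, adjusted p = 0.0017), and ror2.s had -2.55 ± 0.48, adjusted p = 0.002. By contrast fzd8.s, a Frizzled gene of the anterior neural plate, stood at 239.7, 289.6 and 226 CPM in ANB/PPE, against 18.2, 16.9, 5.005 and 6.48 CPM in NBa (4.44 ± 0.62, adjusted p = 0.0002) and fzd8.l had 3.94 ± 0.49, adjusted p = 7.9e-05. fzd6.l was also higher, at 195, 197 and 43.1 CPM in ANB/PPE, against 1.59, 8.94, 2.42 and 5.51 CPM in NBa (4.96 ± 0.58, adjusted p = 5.6e-05), with its highest mean in NNE. Both fzd8 copies were called higher in ANB/PPE than in NNE. Neither was called different from NPa (ANB/PPE minus NPa 0.37, adjusted p = 0.72 for fzd8.l and 1.31, adjusted p = 0.19 for fzd8.s).

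axin2.l, an inhibitor that canonical Wnt signalling switches on in many tissues, stood at 5.41, 1.30 and 6.26 CPM in ANB/PPE, against 199, 81.3, 109 and 82.8 CPM in NBa (-4.77 ± 0.93, adjusted p = 0.0026). sp5l.l, an Sp-family repressor downstream of Wnt, stood at 35.1, 12.8 and 34.4 CPM in ANB/PPE, against 361, 229.6, 647 and 548 CPM in NBa (-4.03 ± 0.55, adjusted p = 0.00016), and sp5.l at 40.03, 19.7 and 30.9 CPM in ANB/PPE, against 180.0, 223, 376 and 158 CPM in NBa (-2.95 ± 0.60, adjusted p = 0.0034). No value of ANB/PPE reached the lowest of NBa for these 3. The S copies had -3.27 ± 0.72, adjusted p = 0.006 for axin2.s and -3.05 ± 0.44, adjusted p = 0.00027 for sp5l.s. Of the extracellular and membrane antagonists, kremen2.l and kremen2.s, which bind Dkk proteins, were lower, the L copy at 0.159, 0.406 and 0.783 CPM in ANB/PPE, against 16.9, 29.3, 39.6 and 25.9 CPM in NBa (-5.95 ± 0.89, adjusted p = 0.00033) and the S copy by -7.88 ± 1.25, adjusted p = 0.00058. notum.s, a secreted Wnt deacylase, had -1.49 ± 0.32, adjusted p = 0.0052. sfrp2.l, a secreted Frizzled-related antagonist, was at 206, 203 and 333 CPM in ANB/PPE, against 149, 30.0, 33.4 and 29.2 CPM in NBa; NBa of embryo 4 stood above the other NBa libraries (2.04 ± 0.63, adjusted p = 0.041), and the call was lost without the ANB/PPE fragment of embryo 4 (0.072), the ANB/PPE fragment of embryo 5 (0.078), the ANB/PPE fragment of embryo 7 (0.12), the NBa fragment of embryo 5 (0.1), the NBa fragment of embryo 7 (0.11) or the unnumbered NBa fragment (0.11) and with embryo as a block (adjusted p = 0.054). tcf7l1.l, the Tcf that represses Wnt targets at rest, stood at 360.5, 429 and 305 CPM in ANB/PPE, against 99.3, 99.5, 43.6 and 86.1 CPM in NBa (2.15 ± 0.47, adjusted p = 0.0054). Neither sfrp2.l nor tcf7l1.l was called different between ANB/PPE and NPa, where they averaged 748 ± 260 and 321 ± 37.3 CPM (SD, n = 3).

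Of 57 loci of the BMP pathway tested, 20 (35.1%) were called higher, 6 (10.5%) lower and 31 neither (median 0.88). Of the 20, 18 had their highest mean in NNE. Summed levels were 2112 to 3571 CPM in ANB/PPE against 2109 to 2167 CPM in NBa, and ANB/PPE of embryo 7, at the lowest of its region, lay within the NBa range. The higher count was 19 without NBa of embryo 4 and 19 without ANB/PPE of embryo 7, and the lower count 5 and 4; the lower count fell to 2 or 3 without ANB/PPE of embryo 4 or 5 or any 1 of the other NBa libraries. The ligand bmp4.l stood at 100.1, 132 and 60.1 CPM in ANB/PPE, against 17.8, 38.96, 9.76 and 22.1 CPM in NBa (2.13 ± 0.51, adjusted p = 0.0099) and bmp7.1.l at 21.01, 15.3 and 11.4 CPM in ANB/PPE, against 4.32, 4.004, 9.09 and 4.79 CPM in NBa (1.52 ± 0.35, adjusted p = 0.0078). Without ANB/PPE of embryo 5 bmp4.l had an adjusted p of 0.058, and without that of embryo 4 bmp7.1.l had 0.052.

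Among the members called higher, bambi.l, a pseudoreceptor that inhibits the pathway, stood at 85.3, 103 and 17.1 CPM in ANB/PPE, against 1.78, 10.4, 1.42 and 2.48 CPM in NBa (4.07 ± 0.68, adjusted p = 0.00092), and bambi.s had 3.03 ± 0.61, adjusted p = 0.0032. smad7-like.s, an inhibitory Smad, stood at 31.7, 33.5 and 5.22 CPM in ANB/PPE, against 3.19, 4.004, 2.17 and 2.42 CPM in NBa (2.99 ± 0.57, adjusted p = 0.0023), and smad6.l had 1.53 ± 0.32, adjusted p = 0.0043. id2.l, a target that blocks bHLH factors, stood at 172, 132 and 82.99 CPM in ANB/PPE, against 23.5, 26.4, 16.4 and 16.6 CPM in NBa (2.63 ± 0.39, adjusted p = 0.00032), and id4.s at 31.7, 12.6 and 3.57 CPM in ANB/PPE, against 0, 0.572, 0.667 and 0.787 CPM in NBa (4.89 ± 0.71, adjusted p = 0.00025). ANB/PPE of embryo 7 was lowest of its region in each of these genes. Those called lower included both msx2 copies and the receptor bmpr1b.l, at 9.31, 5.85 and 10.3 CPM in ANB/PPE, against 93.2, 21.9, 44.4 and 21.9 CPM in NBa (-2.41 ± 0.59, adjusted p = 0.011; lost without the ANB/PPE fragment of embryo 5 (0.07)).

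In the FGF list 3 of 45 loci tested (6.7%) were called higher and 3 (6.7%) lower, against 8.23% and 3.98% of all loci. dusp4.l, an ERK phosphatase, stood at 15.04, 24.0 and 17.3 CPM in ANB/PPE, against 7.60, 6.79, 2.25 and 4.48 CPM in NBa (1.83 ± 0.42, adjusted p = 0.0078), while dusp5.l, another, stood at 14.01, 9.503 and 9.05 CPM in ANB/PPE, against 192, 25.4, 40.95 and 30.8 CPM in NBa (-2.73 ± 0.58, adjusted p = 0.0047). Without NBa of embryo 4 the FGF counts were 6 higher and 3 lower, without ANB/PPE of embryo 7 2 and 5, and the lower count was 1 without ANB/PPE of either embryo 4 or 5. Among retinoic acid genes, 5 of 24 (20.8%) were called lower and 1 (4.2%) higher. dhrs3.l, a retinal reductase that retinoic acid induces, stood at 2.55, 5.69 and 9.57 CPM in ANB/PPE, against 24.9, 38.8, 50.3 and 56.5 CPM in NBa (-2.85 ± 0.56, adjusted p = 0.0028). The receptor rarg-like.1.l differed by -1.08 ± 0.24, adjusted p = 0.0058. The lower count was 6 without NBa of embryo 4 and 3 without each ANB/PPE library, and the higher call, rdh10.1, a retinol dehydrogenase (1.43 ± 0.41, adjusted p = 0.026), was lost without the ANB/PPE fragment of embryo 4 (0.13), the ANB/PPE fragment of embryo 5 (0.095), the NBa fragment of embryo 4 (0.063) or the NBa fragment of embryo 5 (0.069). The cyp26c1 loci, which encode an enzyme that breaks down retinoic acid, overlapped between regions, loc100489980-like.l at 39.95, 112 and 154 CPM in ANB/PPE, against 227, 233, 163 and 36.5 CPM in NBa (-0.70 ± 1.13, adjusted p = 0.76). Both loci of aldh1a3, which makes retinoic acid, had too few counts to be tested. In the Notch list 2 of 42 (4.8%) were called higher and 3 (7.1%) lower, also near the shares of all loci; without NBa of embryo 4 the counts were 3 and 3, without ANB/PPE of embryo 7 0 and 1, and without ANB/PPE of embryo 5 0 and 0, with 2 and 0 without that of embryo 4, 1 and 2 without NBa of embryo 5 or the unnumbered NBa, and 0 and 2 without NBa of embryo 7. With embryo as a block the Notch counts were 1 and 3.

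Secretory pathway genes were higher by small amounts. Of 63 loci tested, 23 (36.5%) were called higher and 0 lower (median 0.79), and 19 of the 23 had their highest mean in NNE. Summed levels were 11807 to 13709.6 CPM in ANB/PPE against 5219.7 to 8578 CPM in NBa. The count was 15 without NBa of embryo 4, the library with the lowest sum, 14 without ANB/PPE of embryo 4, 12 without ANB/PPE of embryo 5 and 20 without ANB/PPE of embryo 7. xbp1.l, the transcription factor of the unfolded protein response, stood at 440.5, 486 and 319 CPM in ANB/PPE, against 78.1, 173, 76.3 and 147 CPM in NBa (1.81 ± 0.35, adjusted p = 0.0025), and xbp1.s had 2.04 ± 0.42, adjusted p = 0.0037. creb3l2.1, a membrane-bound factor of secretory capacity, stood at 103, 116 and 55.2 CPM in ANB/PPE, against 7.41, 11.3, 7.84 and 10.5 CPM in NBa (3.30 ± 0.44, adjusted p = 0.00012). galnt12.l, which starts mucin-type glycans, stood at 97.1, 148 and 130.5 CPM in ANB/PPE, against 4.88, 34.96, 14.8 and 21.8 CPM in NBa (2.71 ± 0.64, adjusted p = 0.0088). The coat protein genes copb2.l and copb2.s of Golgi vesicles had 1.11 ± 0.21, adjusted p = 0.0023 and 1.35 ± 0.26, adjusted p = 0.0023. Each ANB/PPE library lay above every NBa library for these 6 loci.

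Junction genes divided. Of 49 loci in the list of cadherins and junctions, 10 (20.4%) were called higher and 6 (12.2%) lower (median 0.08), against 8.23% and 3.98% of all loci. Without NBa of embryo 4 the counts were 8 and 3, without ANB/PPE of embryo 7 10 and 2, without ANB/PPE of embryo 4 6 and 2, and without ANB/PPE of embryo 5 5 and 2. pcdh1.l, a protocadherin of epithelia, stood at 40.1, 69.8 and 49.1 CPM in ANB/PPE, against 5.16, 11.4, 5.09 and 12.4 CPM in NBa (2.63 ± 0.52, adjusted p = 0.0027). pcdh18.l, a protocadherin highest in NPp, was the opposite, at 1.99, 2.19 and 3.31 CPM in ANB/PPE, against 53.5, 14.9, 15.7 and 27.7 CPM in NBa (-3.48 ± 0.70, adjusted p = 0.0032). The lowest NBa value of pcdh18.l lay above all ANB/PPE values.

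Genes of other germ layers were low at many loci, and those called were higher in ANB/PPE. Of 53 loci of mesoderm and endoderm tested, 7 were called higher in ANB/PPE and 0 lower, the median was 0.98, or 0.43 with 9 loci at their bound, and 21 held under 1 CPM in all 7 libraries. Summed levels were 209 to 727 CPM in ANB/PPE against 68.1 to 256 CPM in NBa, with ANB/PPE of embryo 7 and NBa of embryo 4 the highest of their regions. The markers myod1.l, t.l and sox17b.1.l were at most 0.0938, 0.417 and 4.44 CPM in any of the 7 libraries, and low myod1 had been selected for. At these levels sox17b.1.l was still called higher in ANB/PPE (3.91, edgeR adjusted p = 0.034). Its call was lost without ANB/PPE of embryo 7 or NBa of embryo 4, 5 or 7, and with limma-voom. A further sox17 locus was not called (4.16, edgeR adjusted p = 0.051). sox17b.1.s, an endoderm gene, was at 1.19, 0.0812 and 6.003 CPM in ANB/PPE and had 0 counts in NBa, at least 38.1-fold higher in ANB/PPE against the same floor of 3 counts. gsc.l, a gene of the organizer and prechordal mesoderm, was at 8.197, 10.97 and 25.1 CPM in ANB/PPE, against 3.66, 2.43, 1.17 and 0.303 CPM in NBa (2.99 ± 0.80, adjusted p = 0.019; lost without the ANB/PPE fragment of embryo 7 (0.088), the NBa fragment of embryo 7 (0.057) or the unnumbered NBa fragment (0.054)) and averaged 97.3 ± 48.7 CPM in NPa (SD, n = 3). The count of calls was 8 without NBa of embryo 4, 3 without ANB/PPE of embryo 7 and 4 without NBa of embryo 7. The part of such cells in the differences above was not tested.

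Across regions the higher genes fell into groups by where else they were found. pitx1.l averaged 90.9 ± 26.7 CPM in ANB/PPE and 2.68 ± 4.64 in NNE (SD, n = 3 each). Genes of the forebrain were also present in NPa: six3.l averaged 280.4 ± 35.6 CPM in ANB/PPE and 179.9 ± 161 in NPa, and rax.l 325 ± 87.8 and 287 ± 246 CPM. Genes of the epidermis were higher still in NNE by their means: ccno.l averaged 41.02 ± 28.3 CPM in ANB/PPE and 147 ± 14.5 in NNE, and tp63.s 34.3 ± 22.9 and 376 ± 111 CPM. Against NPa, six3.l in ANB/PPE differed by a log2 of 0.64 (adjusted p = 0.84), and against NNE, tp63.s differed by -3.45 (adjusted p = 0.0023) and agr2.l by 6.58 (adjusted p = 0.00069). These comparisons share the ANB/PPE libraries.

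**Figure D4:**
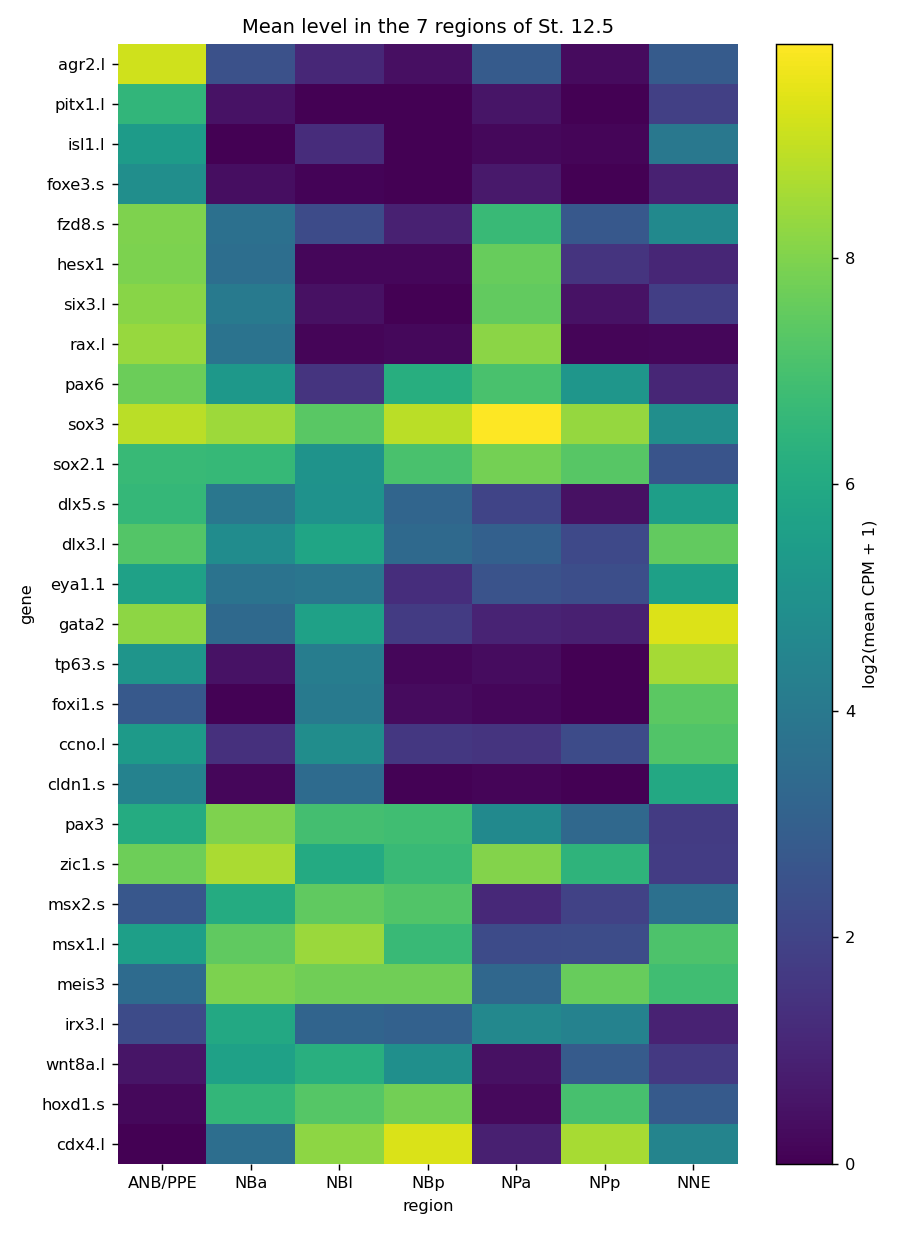
Rows are 28 genes and columns the 7 regions of St. 12.5, ANB/PPE and NBa first; colour gives log2(mean CPM + 1) over the 3 or 4 libraries of a region, and hesx1, gata2, pax3, sox3, pax6 and meis3 are shown by 1 of their loci. The agr2.l and pitx1.l rows are brightest in ANB/PPE, six3 and rax in ANB/PPE and NPa, tp63, foxi1 and ccno in NNE more than in ANB/PPE, and hox, wnt8a and meis3 rows are dark in ANB/PPE and bright in NBa.

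Homeologous copies were compared where both were tested. Of 4449 such pairs, 929 had 1 or both copies called: 157 with both higher, 53 with both lower, 392 with only L called and 321 with only S called. In 541 of the 713 pairs with a single call the other copy had the same sign. Copies share much of their sequence and only uniquely mapped read pairs were counted, so levels of near-identical copies are uncertain. In 6 pairs the copies were called in opposite directions, and they are named here after their values were seen: mgc89520, dact1, foxh1, larp6, ccdc68 and kank3. dact1.l, a Dishevelled-binding modulator of Wnt signalling, was at 142, 194 and 177 CPM in ANB/PPE, against 65.7, 61.1, 41.5 and 78.3 CPM in NBa (1.47 ± 0.28, adjusted p = 0.0023), while dact1.s was at 23.2, 13.7 and 21.6 CPM in ANB/PPE, against 87.6, 51.9, 57.7 and 67.5 CPM in NBa (-1.76 ± 0.40, adjusted p = 0.007). The regions did not overlap for either copy. At St. 14 dact1.l had -0.70 ± 0.37, adjusted p = 0.26 (change -2.04 ± 0.50, adjusted p = 0.025; lost without the ANB/PPE fragment of embryo 5 (0.09) or the NBa fragment of embryo 7 (0.069)). The St. 12.5 call of dact1.s was lost without the ANB/PPE fragment of embryo 5 (0.052).

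At St. 14, in other embryos, the same contrast called 1035 loci (4.67%) higher in ANF/PPE and 1004 (4.53%) lower, together 9.21% of 22143 tested. Of the 1725 loci higher at St. 12.5, 1699 were tested at St. 14 and 311 were called in the same direction, with 18 in the opposite one; their median log2 difference was 1.90 at St. 12.5 and 0.50 at St. 14. Of the 835 lower loci 795 were tested, 172 called in the same direction and 2 in the opposite one, with medians of -1.30 and -0.32. All members were chosen for a large difference at St. 12.5, so that a smaller median at St. 14 is no finding by itself. The test of the change of the difference itself called 225 loci (0.962%) toward ANF/PPE and 204 (0.872%) toward NBa, together 1.83% of 23390 tested. Without ANB/PPE of embryo 5, 18 and 38 of these were called, without ANB/PPE of embryo 4 75 and 117, and without NBa of embryo 4 339 and 300.

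By group, all 13 cement gland loci called at St. 12.5 were called higher again at St. 14, as were 11 of the 13 anterior placode loci and 9 of 9 in the forebrain and eye field list, in which 19 of 28 were called higher at St. 14. agr2.l averaged 1046 ± 868 CPM in ANF/PPE and 6.28 ± 5.08 CPM in NBa at St. 14 (SD, n = 5 and 6; log2 difference 7.38 ± 1.06, adjusted p = 5.3e-05). rax.l averaged 381 ± 312 CPM in ANF/PPE and 0.5 ± 0.694 CPM in NBa (9.54 ± 1.29, adjusted p = 2.6e-05), and its difference was not called changed (4.92 ± 1.77, adjusted p = 0.14). Border and crest genes called lower numbered 32 of 51 at St. 14. Of all loci tested at St. 14, 4.67% were called higher and 4.53% lower. pax3 (xelaev18029860m.g) had then 48.1 ± 23.8 CPM in ANF/PPE and 202 ± 64.9 CPM in NBa (-2.07 ± 0.43, adjusted p = 0.0025), and the change of its difference between the stages was 0.06 ± 0.78, adjusted p = 1.

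Of the nonneural genes called at St. 12.5, 11 of 32 loci were called higher again at St. 14, as were 4 of the 19 multiciliated and ionocyte loci. Over all loci called higher at St. 12.5, 311 of the 1699 tested at St. 14 were called higher again. Whether the shares of these lists differ from that of all loci or from those of other lists was not tested. For single genes the change was called in 4 loci tested of the nonneural list toward NBa, among them tp63.s, whose difference moved by -4.73 ± 1.30, adjusted p = 0.045; it averaged 92.2 ± 41 CPM in ANF/PPE and 28.4 ± 21.98 CPM in NBa. This change of tp63.s was not called without the ANB/PPE fragment of embryo 4 (0.13), the ANB/PPE fragment of embryo 5 (0.1), the NBa fragment of embryo 5 (0.09), the NBa fragment of embryo 7 (0.11) or the unnumbered NBa fragment (0.1). cldn1.s, with the smallest p at St. 12.5, averaged 17.2 ± 16.7 CPM in ANF/PPE and 25.6 ± 19.97 CPM in NBa at St. 14 (-0.58 ± 0.76, adjusted p = 0.72; change -7.45 ± 1.32, adjusted p = 0.0038). This change of cldn1.s was called without any 1 of the 7 St. 12.5 libraries. isl1.l averaged 27.7 ± 21.1 CPM in ANF/PPE and 4.28 ± 5.14 CPM in NBa at St. 14, and its change was lost without the ANB/PPE fragment of embryo 5 (0.06). id2.s averaged 34.9 ± 18.2 CPM in ANF/PPE and 28.8 ± 10.08 CPM in NBa (change -2.51 ± 0.59, adjusted p = 0.019; lost without the ANB/PPE fragment of embryo 4 (0.095), the ANB/PPE fragment of embryo 5 (0.079) or the unnumbered NBa fragment (0.056)). Levels of these 4 genes in NBa were higher at St. 14 than at St. 12.5. In NBa of St. 12.5 tp63.s averaged 0.392 ± 0.619, cldn1.s 0.143 ± 0.194, isl1.l 0.0179 ± 0.0357 and id2.s 9.30 ± 1.98 CPM (SD, n = 4). The stages were not compared directly. In NBl, cut separately at St. 12.5 only, tp63.s averaged 17.2 ± 2.91, cldn1.s 9.92 ± 4.25, isl1.l 1.37 ± 1.35 and id2.s 46.7 ± 17.5 CPM (SD, n = 3). ppl.l, a plakin of cell junctions, had 2.72 ± 0.64, adjusted p = 0.0085 at St. 12.5 and -2.77 ± 1.103, adjusted p = 0.12 at St. 14 (change -5.35 ± 1.45, adjusted p = 0.041; lost without the ANB/PPE fragment of embryo 4 (0.083), the ANB/PPE fragment of embryo 5 (0.12), the NBa fragment of embryo 4 (0.061), the NBa fragment of embryo 7 (0.098) or the unnumbered NBa fragment (0.085)).

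In the other direction the change was called for sp5l.l, which averaged 29.6 ± 7.80 CPM in ANF/PPE and 39.2 ± 39.3 CPM in NBa at St. 14 (-0.40 ± 0.70, adjusted p = 0.8; change 3.73 ± 1.03, adjusted p = 0.047), and for sp5l.s (change 3.46 ± 0.80, adjusted p = 0.017). Without the ANB/PPE fragment of embryo 4 (0.097), the ANB/PPE fragment of embryo 5 (0.18), the ANB/PPE fragment of embryo 7 (0.088), the NBa fragment of embryo 7 (0.1) or the unnumbered NBa fragment (0.082) the change of sp5l.l was lost, and without the ANB/PPE fragment of embryo 4 (0.056) or the ANB/PPE fragment of embryo 5 (0.087) that of sp5l.s. At St. 14 axin2.l had a difference of -3.94 ± 0.54, adjusted p = 2.9e-05 and hoxd1.l one of -5.24 ± 0.69, adjusted p = 2.2e-05. sox9.1 moved toward NBa, with 9.38 ± 7.32 CPM in ANF/PPE and 164 ± 81.95 CPM in NBa at St. 14 (change -2.999 ± 0.72, adjusted p = 0.021; lost without the ANB/PPE fragment of embryo 5 (0.072) or the NBa fragment of embryo 7 (0.052)). loc100486344.s, annotated as notch2, was called higher in ANB/PPE at St. 12.5 (1.71 ± 0.45, adjusted p = 0.018) and lower in ANF/PPE at St. 14 (-1.60 ± 0.49, adjusted p = 0.037; change -3.18 ± 0.71, adjusted p = 0.013, lost without the ANB/PPE fragment of embryo 5 (0.069)). The St. 12.5 call of loc100486344.s was lost without the ANB/PPE fragment of embryo 5 (0.092), the ANB/PPE fragment of embryo 7 (0.055) or the NBa fragment of embryo 7 (0.057).

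**Figure D5:**
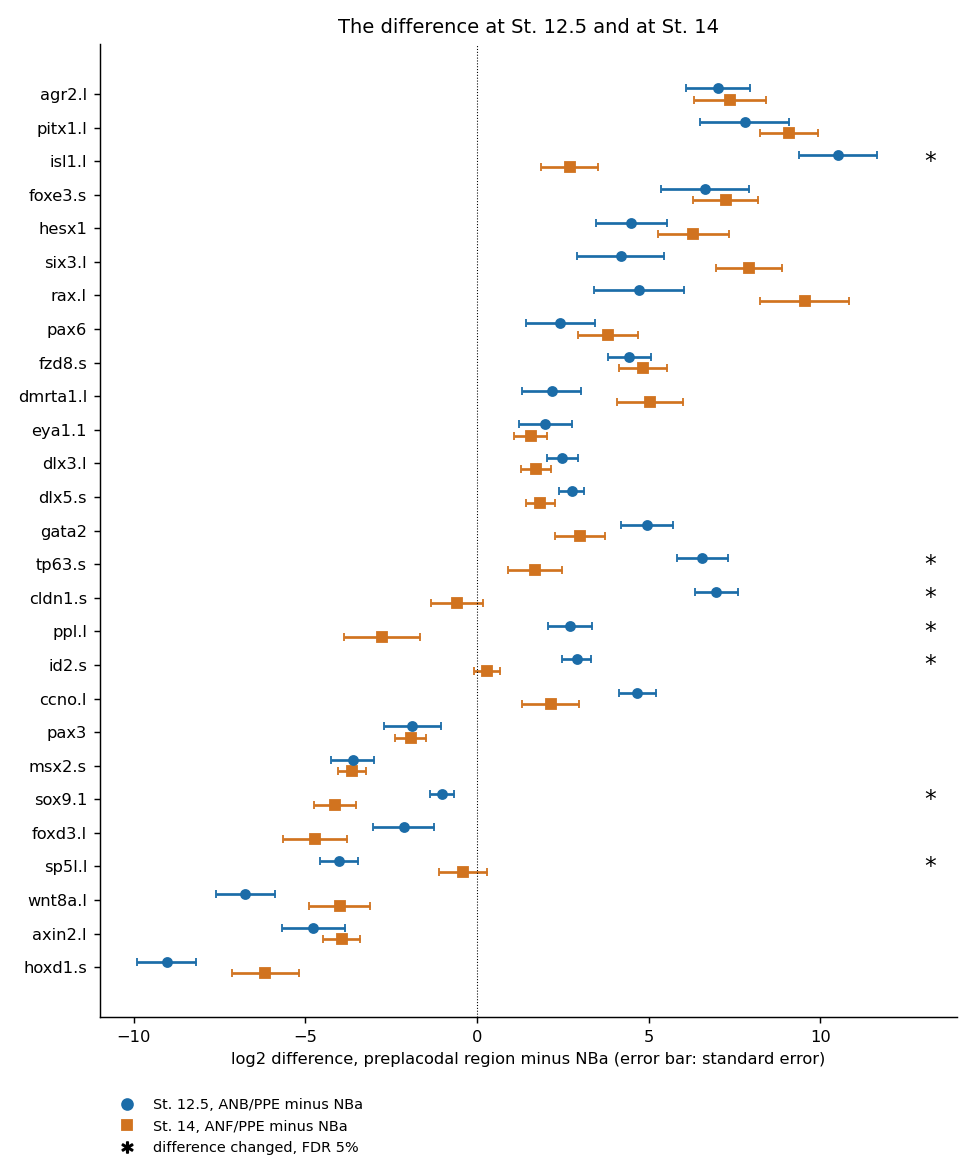
Log2 difference, preplacodal region minus NBa, with its standard error for 27 genes at St. 12.5 and St. 14; an asterisk marks a changed difference at a false discovery rate of 5%, and hesx1, pax6, gata2 and pax3 are each shown by 1 of their loci. Cement gland and forebrain genes lie to the right at both stages, hox genes to the left at both, and cldn1.s, isl1.l and tp63.s lie nearer 0 at St. 14. Fitted values of isl1.l and other genes with 0 to 3 counts in a region depend on the small count edgeR adds.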

How the data were processed

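Superficial ectoderm of wild-type Xenopus laevis embryos was dissected by region, each fragment was screened by PCR, and stranded libraries of polyadenylated RNA were sequenced as paired reads. The authors aligned the reads with TopHat2 2.0.14, left out read pairs that mapped to several places, and made gene models with Cufflinks, and the deposited fragment counts per locus come from HTSeq. HTSeq's 5 summary entries, 15.8 to 17.6% of all entries in the 7 libraries, entered neither library sizes nor tests. Multi-mapping reads being excluded, close homeologs can lose counts. Of 45099 loci, 17406 were named in the table and 1373 numbered loci took a name from the study. The other 26320 stayed numbered.

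Counts were tested with edgeR 4.0.16 in R 4.3.3 (quasi-likelihood F test, TMM size factors) in 1 fit of the 22 dissected libraries of St. 12.5, with region as the only factor. A locus was tested where 2 or more libraries held over 10 counts of it. St. 14 was fitted likewise, and the change of the difference was tested in 1 fit of both stages. At St. 14 libraries of 1 embryo were treated as replicates, so those p-values may be too small. Regions of 1 embryo were paired by the labels, and embryo as a block was an alternative. Deviations from the region means correlated at a median r of 0.24 over the 63 same-embryo pairs of libraries and -0.112 over the 126 pairs of different embryos. Centring each region on its own mean lowers r between different embryos. Between ANB/PPE and NBa, r was 0.0728 to 0.331 over 3 same-embryo pairs and -0.228 to 0.12 over 6 pairs of different embryos. The other alternatives were size factors (relative log expression, upper quartile), count filters, DESeq2 1.42.0, limma-voom (limma 3.58.1), fewer libraries, thresholds and leaving out each library. The calls of each list and the change of each named gene were also recomputed under these settings, which was decided after seeing the data.

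The 7 libraries and the gene lists were chosen with earlier results of these data known. Some loci, such as those of gbx2, msx2, ern2 and gata2, belong to more than 1 list, so counts of different lists are not independent. Genes named were those with the smallest p in each direction. Others were some of the 12 with the largest differences in each direction at a mean of at least 10 CPM. The leading called members of each list and genes of a fixed set, chosen whatever their values, were added. Of the fixed set some genes are given by 1 copy only and some are not named. The other copies or loci of rfx4, sox9, foxd3, snai2, sox3 and otx2 were not called. Further genes were named for a call that is lost or gained or for a change between the stages. Intervals of ratios cover counting error only. The fitting script was tested on simulated data. Some members of the lists are not reported here by name.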

Additional observations from a re-analysis of the deposited data

Results flagged for a closer look

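With 4 libraries, a value was marked where its gap to the nearest other NBa library, on the log2(CPM + 1) scale, took more of the range of NBa than Dixon's critical value at 95% allows. Chance marks about 5% of groups, and 11 of the 137 genes named were marked. ANB/PPE, with 3 libraries, was not examined in this way. NBa of embryo 4 was the lowest for dlx3.l (10.2 CPM) and krt5.7.l (279.9 CPM) and the highest for sfrp2.l (149 CPM) and sox9.1 (17.1 CPM). NBa of embryo 5 was the highest for gata3 (xelaev18020919m.g, 4.22 CPM), foxi1.s (0.143 CPM) and isl1.l (0.0715 CPM). The unnumbered NBa was the lowest for msx2.l (28.8 CPM) and snai2 (xelaev18031998m.g, 1.45 CPM) and the highest for sox17b.1.l (0.364 CPM), and NBa of embryo 7 was the highest for tp63.l (0.0834 CPM). The values under 1 CPM rest on few counts. The 18 gene lists were examined with the same critical value on summed CPM, not on the log2 scale. By these sums NBa of embryo 4 stood apart for the secretory pathway, where it was lowest (5219.7 CPM). It also stood apart for mesoderm and endoderm, where it was highest (256 CPM).

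For 10 of the 137 genes the difference between the preplacodal region and NBa was itself tested as changed between the stages, as a log2 difference at St. 14 minus that at St. 12.5. It moved toward NBa for isl1.l (-7.72), cldn1.s (-7.45), ppl.l (-5.35), tp63.s (-4.73), loc100486344.s (-3.18), sox9.1 (-2.999), id2.s (-2.51) and dact1.l (-2.04), and toward ANF/PPE for sp5l.l (3.73) and sp5l.s (3.46). The change of cldn1.s was called without any 1 of the 7 libraries of St. 12.5. These changes cannot be told apart from the differences in dissection between the stages.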

How the results depend on the processing

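At St. 12.5, 1725 loci were called higher and 835 lower in ANB/PPE. Upper quartile size factors gave 1433 and 1293, DESeq2 1974 and 1326, the 7 libraries alone 1089 and 562, and a false discovery rate of 1% 762 and 268. With upper quartile factors the median of all loci moved to -0.11 and the share of calls that were higher to 52.6%, against 67.4%, so a locus with a difference near 0 can turn its direction there. The share was 59.8% with DESeq2. With the embryos paired, the replicate block gave 1921 and 724 in the fit of all regions, of which 1542 and 625 were among the calls without it, and 951 and 219 with 6 libraries of 2 regions. The block fits drop the unnumbered NBa. Leaving out 1 library gave 865 to 1645 higher and 293 to 1212 lower calls. Relative log expression factors, the other count filters and limma-voom gave counts within 1.5 times those above, as did the factors and limma-voom at St. 14, where no other filter was run. The calls of a changed difference, 225 and 204, were 542 and 488 with DESeq2, 65 and 81 in the fit of 4 groups alone, and 18 to 339 and 38 to 300 when 1 library of St. 12.5 was left out. The cause was not tested.

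The difference of sox2.1, 0.03, turned to -0.001518 with relative log expression factors, -0.13 with upper quartile factors, -0.047 with no filter, -0.001571 with DESeq2 and -0.053 with the 7 libraries alone, and ranged between -0.24 and 0.22 when 1 library was left out (-0.012 without NBa of embryo 4, -0.15 without NBa of embryo 5, -0.24 without ANB/PPE of embryo 7). loc100489980-like.s, a cyp26c1 locus at -0.38, ranged between -1.25 and 0.055 on leaving out 1 library, and t.l between -0.52 and 0.24, with 0.18 without NBa of embryo 7. None of these 3 genes was called under any setting. As 1 count was worth 0.0647 to 0.0933 CPM before scaling by the size factors, differences between levels under 1 CPM rest on few counts.

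Of the 112 named genes that were called at St. 12.5, the paired fit of 6 libraries with the replicate block lost 25 and gained 6 others: lost were hesx1 (xelaev18001776m.g), dlx5.l, both six3, rax, krt8 and ror2 copies, krt12.l, krt5.7.l, ppl.l, msx1.l, lin28a.s, sfrp2.l, notum.s, bmp7.1.l, bambi.s, smad6.l, id2.s, rdh10.1, mcidas (xelaev18008287m.g), gsc.l and foxi1.l, and gained were eya1.1, both pax3 loci, snai2, sox3 (xelaev18038842m.g) and otx2 (xelaev18039840m.g). DESeq2 lost 6 calls (foxe3.s, six3.l, six3.s, rax.s, foxi1.l, sox17b.1.s) and gained 6, limma-voom lost 4 (cdx4.l, foxi1.l, foxi1.s, sox17b.1.l) and gained 6, the 7 libraries alone lost 6 and gained 5, and no other setting that kept all 22 libraries lost more than 1.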
